A study of Mus musculus with 8 samples.

Results

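The cells described here are the macrophages of mouse pancreatic islets, taken as every cell that the authors' annotation calls a macrophage. The annotation places 184 of 6959 cells in this class (2.64%), of which 129 were among the 3776 cells of the vehicle library (3.42%) and 55 among the 3183 cells of the FAKi library (1.73%). The class coincides with 1 deposited cluster out of 12 annotated classes. Both libraries came from wild-type mice whose strain was not given in the sources used here. One cohort received vehicle and the other PF562271 (FAKi), an inhibitor of focal adhesion kinase, given by oral gavage at 50 mg/kg in 2 doses per day over 3 weeks, and the islets were collected once 10 days had passed since dosing ended. Islets were handpicked and pooled from 5 mice per cohort, and each pool was run as a single droplet library with 3′ chemistry. The drug was given to the whole animal, so no cell type was targeted. The age of the mice is stated only for all mice of the work, as 6 to 12 weeks when experiments began in one place and as 2 to 6 months in another.

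Islet macrophages are tissue-resident phagocytes that lie along the islet capillaries, take up material shed by beta cells and present it on MHC class II molecules. They are known for a proinflammatory tone at rest, with *Il1b* and *Tnf* transcripts, and for C1q, the recognition protein that starts the classical complement pathway, whose chains are made mainly by macrophages. The connective tissue of the pancreas holds a further kind of macrophage that carries the mannose receptor CD206, encoded by *Mrc1*. FAK, encoded by *Ptk2*, is a tyrosine kinase of adhesion sites, and its close relative PYK2, encoded by *Ptk2b*, is the more usual of the pair in blood-derived cells. PF562271 also acts on PYK2, less strongly than on FAK.

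The 5 given markers were *Lyz2* (lysozyme), *Cd68* (a lysosomal glycoprotein), *Adgre1* (the receptor known as F4/80), *C1qa* and *C1qb*. At least 3 of the 5 had a UMI in 125 of the 184 cells (67.9%), which were 79 vehicle cells (61.2%) and 46 FAKi cells (83.6%). All 5 were present in 52 vehicle and 23 FAKi cells, and 9 vehicle and 2 FAKi cells had none. The data therefore bear out the label for most of the class and not for all of it, and the cells without the markers are described further on by their leading genes.

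The libraries held 59514118 UMIs (unique molecular identifiers, each standing for 1 captured RNA) from the vehicle and 57836783 from the FAKi cohort, and the macrophages held 1199622 (2.02%) and 508414 (0.879%) of them. A macrophage had a median of 7423 UMIs and 2180 genes in the vehicle library and of 7734 UMIs and 2077 genes in the FAKi library, against 10101.5 and 13688 UMIs over all cells of each library. The median share of mitochondrial UMIs was 4.84% and 4.51%. A doublet caller marked 68 and 57 cells in the libraries and 0 in the class, and 4 barcodes occurred in both libraries, 0 of them in the class. With 1 library per condition there are no replicates, so no test is possible. Levels are CPM, the UMIs of a gene per 1000000 UMIs when summed over the macrophages of a library, and brackets after a ratio of FAKi to vehicle give its 95% interval, which covers counting error only and not the spread between mice.

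The start regions of 4 genes that the class holds nearly alone or in large part are printed because their RNA carries the identity of the class. *C1qb* and *C1qc* encode chains of C1q, *Fcgr1* the high-affinity IgG receptor CD64, and *Lyz2* lysozyme. A script looked for AGGAAGT, a form of the purine-rich core that PU.1 and other ETS factors bind, and its complement ACTTCCT in the 250 bases before and 50 bases after each start in RefSeq on GRCm38.p6. The letters occurred in 9.35% of 32851 such windows, or in at least 1 window of 10.7% of 27025 genes. Of the 15 genes most restricted to the class, 12 had a window and 6 of these (50%) held the letters, namely *C1qb*, *C1qc*, *Fcgr1*, *Fcrls*, *Mmp12* and *Mgl2*, as did *Lyz2* outside that group. The first base of the match lay 53 bases before the start of *C1qb*, 195 before that of *C1qc*, 61 before that of *Fcgr1* and 100 before that of *Lyz2*. A match is a description of the letters and not evidence of binding. The 250 bases before each start are printed 5′ to 3′ on the gene's strand, which is the minus strand for all 4, with the match in capitals. They lie at chr4:136886201-136886450 (*C1qb*), chr4:136892915-136893164 (*C1qc*), chr3:96293970-96294219 (*Fcgr1*) and chr10:117282273-117282522 (*Lyz2*).
C1qb: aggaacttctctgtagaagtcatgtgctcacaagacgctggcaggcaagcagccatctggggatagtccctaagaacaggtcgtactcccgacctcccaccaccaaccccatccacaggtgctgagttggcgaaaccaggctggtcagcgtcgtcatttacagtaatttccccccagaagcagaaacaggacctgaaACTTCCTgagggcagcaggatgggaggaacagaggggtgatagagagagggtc
C1qc: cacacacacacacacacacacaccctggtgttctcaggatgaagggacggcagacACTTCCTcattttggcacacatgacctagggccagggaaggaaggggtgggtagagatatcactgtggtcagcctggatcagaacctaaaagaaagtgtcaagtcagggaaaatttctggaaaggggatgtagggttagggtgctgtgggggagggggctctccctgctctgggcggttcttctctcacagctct
Fcgr1: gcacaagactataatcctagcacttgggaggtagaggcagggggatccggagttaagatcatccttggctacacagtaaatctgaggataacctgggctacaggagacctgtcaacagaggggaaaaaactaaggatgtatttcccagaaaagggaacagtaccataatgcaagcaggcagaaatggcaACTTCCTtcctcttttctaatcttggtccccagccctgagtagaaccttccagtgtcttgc
Lyz2: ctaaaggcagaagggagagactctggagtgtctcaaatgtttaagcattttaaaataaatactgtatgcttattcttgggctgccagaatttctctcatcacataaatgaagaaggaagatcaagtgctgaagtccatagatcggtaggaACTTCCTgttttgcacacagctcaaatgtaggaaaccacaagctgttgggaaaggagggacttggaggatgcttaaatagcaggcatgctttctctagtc

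The genes most restricted to macrophages were receptors, complement chains and secreted products of phagocytes and dendritic cells. Ranked, from 100 UMIs in the class upwards, by their level against the highest other class, *Clec4n*, the receptor Dectin-2, had all of its UMIs in macrophages (100%). *Fcgr1* had 97.8% of its UMIs there, *Fcrls*, an Fc receptor-like protein of resident macrophages, 99.5%, and the C1q chain genes *C1qc* and *C1qb* 98.3% and 98.1%. *Mmp12*, the macrophage elastase, stood at 97.8%, the membrane protein genes *Ms4a7* and *Ms4a6d* at 97.6% and 97.7%, and the anaphylatoxin receptor gene *C3ar1* at 96.4%. The fractalkine receptor gene *Cx3cr1* had 96.6% of its UMIs in the class and the nonclassical MHC gene *H2-M2* 97.5%. The remaining 4 were the lectins *Cd209a* (99.5%), *Clec10a* (98.4%) and *Mgl2* (98.03%) and the chemokine *Ccl17* (88.7%), which are typical of dendritic cells as well as of macrophages. Of the given markers, *Adgre1* had 95.4%, *Lyz2* 91.4% and *Cd68* 80.4% of its UMIs in the class, whereas *C1qa* had only 59.6%. *Csf1r*, the receptor for the growth factor that macrophages depend on, had 67.1%, and the signalling adaptor *Tyrobp* 91.4%.

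The most abundant transcripts of the class mixed macrophage genes with hormone RNA. *Ins2* and *Ins1*, the insulin genes, led with 76009.8 and 81213 CPM and with 32357 and 30439.8 CPM in vehicle and FAKi macrophages. Beta cells held *Ins2* at 394857 and 404454 CPM. *Ins2* was spread very unevenly over macrophages, with a lowest, median and highest cell of 1, 17 and 17777 *Ins2* UMIs in the vehicle and 2, 31 and 19781 in the FAKi library. Every macrophage had at least 1 *Ins2* UMI. Next came *Apoe*, an apolipoprotein secreted in quantity by macrophages, at 25856 and 26836 CPM, with a ratio of 1.04 (1.02 to 1.06). *Tmsb4x*, which binds actin monomers, followed at 19379 and 18634 CPM, and *Cd74*, the invariant chain that escorts MHC class II, at 19318 and 15824 CPM. *Fth1* and *Ftl1*, the chains of ferritin, the nuclear RNA *Malat1*, the protease inhibitor *Cst3* and the cytoskeletal *Actb* made up the remainder of the 10 most abundant genes.

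The levels of the markers varied widely from cell to cell in both libraries. *Lyz2* had a lowest, median and highest cell of 0, 15 and 423 UMIs in the vehicle and 0, 19 and 506 UMIs in the FAKi library. *C1qa* ran from 0 to 182 UMIs with a median of 9 in vehicle cells and from 0 to 159 with a median of 18 in FAKi cells. *Apoe* had medians of 59 and 97 UMIs and highest cells of 1559 and 1418. *Cd74* was the most even of these, with medians of 121 and 142 UMIs and a UMI in 120 of 129 and 53 of 55 cells. In each case the libraries overlapped over nearly their whole range.

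**Figure D1:**
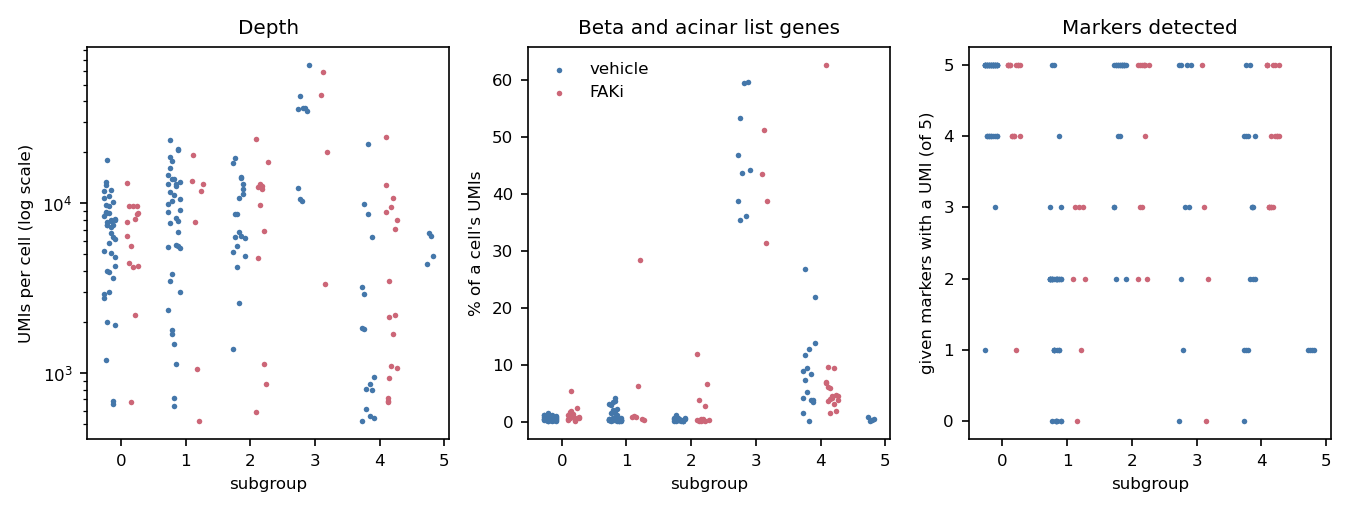
Each point is 1 cell of the class (blue, vehicle, 129 cells; red, FAKi, 55 cells), placed by subgroup 0 to 5 of the class on the x axis, with the UMIs per cell (log scale), the percent of a cell's UMIs in genes of the beta and acinar cell lists, and the number of the 5 given markers with a UMI on the y axes. Subgroups 0 and 2 hold a median of 5 of the 5 markers, the 4 cells of subgroup 5 a median of 1, and subgroup 3 stands apart by beta cell RNA.

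The 3 chains of C1q were present or absent together. All 3 had a UMI in 111 cells (71 vehicle and 40 FAKi), none had one in 59 cells (49 and 10), and 1 or 2 chains were seen in the remaining cells, 8 with 1 chain and 6 with 2 over both libraries. The genes lie side by side on chromosome 4 (GRCm38.p6), with *C1qb* at 136880126 to 136886200, *C1qc* at 136889801 to 136892936 and *C1qa* at 136895916 to 136898844. Within macrophages the chains kept nearly the same proportions in both libraries. For each UMI of *C1qa* there were 0.822 of *C1qb* and 0.494 of *C1qc* in vehicle cells, and 0.842 and 0.480 in FAKi cells. Per cell thinned to 2000 UMIs, *C1qa* was seen in 57.9% (48.0 to 67.4) of 107 vehicle cells and 76.2% (60.5 to 87.9) of 42 FAKi cells, with 22 and 13 shallower cells left out. The unthinned shares were 60.5% and 78.2%. In endothelial cells, which should lack the gene, the thinned share was 0% for vehicle, which allows up to 0.741%, and 0.441% for FAKi, at median depths of 5752 and 4836 UMIs. The higher share in FAKi macrophages lies beside a different mix of cells in the class, since 38 of the 45 cells of the C1q-poor subgroup 1 were vehicle cells.

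Clustering the class alone gave 6 subgroups of 57, 45, 32, 13, 33 and 4 cells, numbered 0 to 5. Their defining genes were used to form them, so the levels that follow are descriptions, and the numbers of cells per library are given only for orientation. Subgroup 0 (42 vehicle and 15 FAKi cells) and subgroup 2 (20 and 12 cells) were macrophage-like, with a median of 5 of the 5 markers and at least 3 markers in 55 of 57 and in 28 of 32 cells. The genes leading subgroup 0 included *Lilra5*, *Il1a*, *Klra2*, *Dcstamp*, *Cd72* and *Fcgr1*, none of them on the list of islet-resident macrophages, of which only *Apoe* was among its 20 leading genes. That list took 6.29% of the UMIs of subgroup 0 and 5.01% of those of subgroup 2. Subgroup 0 was the richest in *C1qa* (7041 CPM), *Apoe* (58231 CPM) and the inflammatory cytokine *Il1b* (1189 CPM). MHC class II genes made up 6.61% of its UMIs. Subgroup 2 was led by *Gpnmb*, which is also on the islet-resident list, and *Fabp5*, genes of lipid-laden macrophages, and by genes of the CD206-positive stromal kind such as *Folr2*, *Pf4*, *F13a1*, *Lyve1*, *Cbr2*, *Mrc1* and *Stab1*. The CD206 list took 0.366% of the UMIs of subgroup 2, against 0.0244% in subgroup 0, and all 16 of its genes in the table had a UMI there. Subgroup 2 had the highest *Lyz2* and *Mrc1* (15825 and 469 CPM, against 6970.2 and 32.7 CPM in subgroup 0) and less MHC class II (2.18% of UMIs).

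Subgroup 1 (38 vehicle and 7 FAKi cells) was poor in the markers, with a median of 2 of 5 and at least 3 in 8 of its 45 cells. It was led by *Cd209a*, *Ccr7*, *Itgb7*, *Lsp1*, *S100a4*, *Stmn1* and *H2-Oa*. The conventional type 1, type 2 and CCR7 dendritic cell lists took 0.156%, 0.170% and 0.113% of its UMIs, against 0.0453%, 0.0181% and 0.00377% in subgroup 0. All members of the 3 lists had a UMI in it, but so did 22 of 22 macrophage core genes, so that count says little. Since genes of several dendritic cell lists were found together, it was given no single name. MHC class II genes made up 5.87% of its UMIs, with *H2-Aa* at 12959.9 CPM, close to the 12223 CPM of subgroup 0, whereas *C1qa* stood at 727 CPM. Subgroup 3 (9 and 4 cells) had 46.9% of its UMIs in beta cell genes, between 30.7% and 58.7% in its cells, with a median depth of 35878 UMIs per cell. Subgroup 4 (16 and 17 cells) was shallow, with a median of 1854 UMIs, and 12.8% of its UMIs fell in acinar genes although its median cell had 2.41%. Its cells had a median of 4 of the 5 markers, with at least 3 in 26 of 33. At a lower clustering resolution all 33 fell in 1 group of 95 with the 57 cells of subgroup 0. That group also took in the 4 neutrophil-like cells of subgroup 5, so sharing it is weak evidence of likeness. Subgroups 3 and 4 were not named, the latter because of its depth and its leading acinar genes, so values for subgroups 0 and 2 leave out the 17 of 55 FAKi cells that it holds. Subgroup 5 was 4 vehicle cells with UMIs of 11 of 11 neutrophil genes, which took 40.6% of their UMIs. It was neutrophil-like, with *S100a9* at 180949 CPM, and held no *C1qa* UMI. At a lower clustering resolution the class fell into 4 groups of 95, 44, 32 and 13 cells, and at a higher one into 6.

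**Figure D2:**
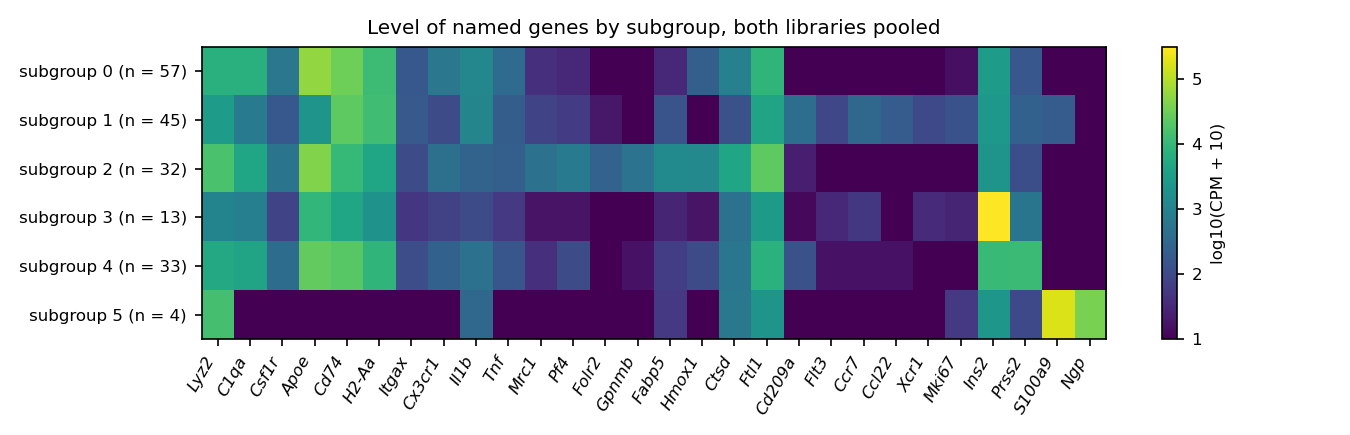
The colour gives the level of 28 genes (columns) in the 6 subgroups of the class (rows), both libraries pooled, as log10 of CPM plus 10. C1qa and Apoe are high in subgroups 0, 2 and 4, the dendritic cell genes in subgroup 1, Ins2 in subgroup 3 and S100a9 and Ngp in subgroup 5.

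The comparison of FAKi with vehicle asks what a past course of the inhibitor left in the macrophages of the islet. A gene was counted as different where its log2 ratio, with 10 CPM added to each level, was at least 1 in size, among the 3908 genes with at least 50 UMIs in the class. By this rule 53 genes (1.36%) were at least 2-fold higher and 111 (2.84%) at least 2-fold lower in FAKi macrophages. Many of the higher genes were not macrophage genes. Of the 53, 34 stood in the class at under 10% of their level in another class, 22 were in the acinar and 5 in the other-endocrine list, and 28 had at least 50% of their UMIs in 1 cell. For 76 of the 111 lower genes, subgroup 1 was the subgroup with the largest share of UMIs, and for 17 it was subgroup 5. Of the 111, 7 were on the neutrophil list and 18 had no UMI in FAKi macrophages. Subgroup 1, with 38 vehicle and 7 FAKi cells, also had the largest UMI total of the subgroups (423536). The matching shares over all 3908 genes are not given here, for these lower genes or for the 34 higher ones. In the 62 vehicle and 27 FAKi cells of the macrophage-like subgroups 0 and 2, an alternative added after the data were seen, 26 of 1720 genes (1.51%) were at least 2-fold higher and 58 (3.37%) at least 2-fold lower, and 17 and 12 of these were shared with the counts over the whole class. A single FAKi cell, of which 61.7% of 24610 UMIs were acinar, had a large part in the higher genes, since without it 29 genes were 2-fold higher and 103 lower, another alternative added after the data were seen. Results are for the whole class unless subgroups are named. FAKi cells were 15 of subgroup 0 and 12 of subgroup 2, against 42 and 20 vehicle cells. A gene that differs between the subgroups thus also carries that difference in mix. Subgroup 2 was itself mixed, with a UMI of *Gpnmb* in 11, *Folr2* in 13 and *Lyve1* in 8 of its 32 cells. Its CD206 list took 0.505% of vehicle and 0.151% of FAKi UMIs. Ratios within subgroup 2 therefore also hold any difference in mix among its 20 and 12 cells.

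**Figure D3:**
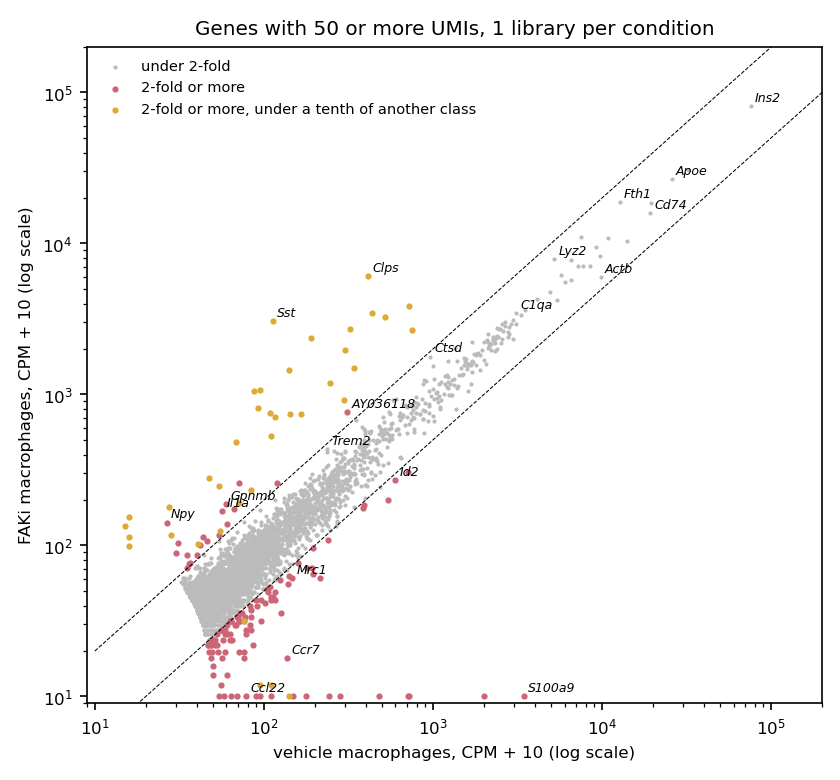
Each point is a gene with at least 50 UMIs in the class, plotted by its level in vehicle macrophages (x axis) and in FAKi macrophages (y axis) as CPM plus 10 on log axes, with dashed lines at 2-fold. Red points (53 higher and 111 lower, counting the yellow) are past the lines, and yellow points are those of them that stand at under 10% of their level in another class.

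Core macrophage genes were close to level between the libraries. Of 21 members of the core list with at least 50 UMIs, 0 were 2-fold higher and 0 lower, and the median log2 ratio was 0.14 over 22 members, against −0.08 over all 7102 genes with at least 20 UMIs. *Lyz2* was at 5211 and 7852 CPM in vehicle and FAKi macrophages, a ratio of 1.51 (1.45 to 1.57), with 1.04 (0.951 to 1.13) within subgroup 0 and 1.44 (1.36 to 1.53) within subgroup 2. *Cd68* was at 382 and 472 CPM, a ratio of 1.24 (1.05 to 1.45), and *Adgre1* at 195 and 189 CPM, a ratio of 0.968 (0.755 to 1.23), whose interval includes 1. *Lyz2* was thus the given marker that stood furthest from level, and its excess lay outside subgroup 0. *C1qa* was at 3093 and 3452 CPM, a ratio of 1.12 (1.05 to 1.18), and *C1qb* at 2543 and 2905 CPM, a ratio of 1.14 (1.07 to 1.22). The direction of the C1q chains depended on the cells taken, since *C1qa* had a ratio of 0.896 (0.837 to 0.958) and *C1qb* of 0.905 (0.84 to 0.974) in subgroups 0 and 2. *Csf1r* was at 337 and 287 CPM, a ratio of 0.853 (0.701 to 1.03). The islet-resident macrophage list had a median of 0.05 over 11 members, with 1 of 11 members, *Gpnmb*, more than 2-fold higher.

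The complement list was near level over the whole class. Of 10 complement genes and receptors with at least 50 UMIs, 0 were 2-fold higher and 1 lower, and the list median was −0.03. In subgroups 0 and 2, 3 of 8 members were 2-fold lower and 0 higher, with a median of −0.12 and 3 of 12 members above 0.

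The ferritin genes and several lysosomal and lipid genes were higher in FAKi macrophages, though the lipid and lysosomal lists as a whole were not so in subgroup 0. *Fth1* was at 12729.8 and 18789.8 CPM and *Ftl1* at 7479 and 11050 CPM, with ratios of 1.48 (1.44 to 1.51) and 1.48 (1.43 to 1.53). Within subgroup 0 the ratio of *Fth1* was 1.17 (1.11 to 1.23) and within subgroup 2 it was 1.46 (1.41 to 1.52), so ferritin RNA was higher in FAKi cells of both subgroups. In 10 other classes of the same libraries *Fth1* was lower in the FAKi library in 7 and higher in 3. It was lower in endothelial cells (3523 and 2394 CPM in vehicle and FAKi), fibroblasts (7509 and 5128 CPM), B cells (5351 and 3557 CPM), pericytes (4123 and 3327 CPM), delta cells (1239 and 1128 CPM) and both acinar classes (552 and 453, and 904 and 776 CPM). It was higher in beta cells (1056 and 1128 CPM), alpha cells (988 and 1062 CPM) and ductal cells (3315 and 3538 CPM). T cells were not compared, because *Ins2* made up 293516 CPM of their FAKi RNA against 52238 CPM in the vehicle library. This lowers the CPM of every other gene. Among the classes kept, *Ins2* was also higher in FAKi fibroblasts (45272 and 90724 CPM), endothelial cells (36727 and 55360 CPM) and ductal cells (16470 and 36697 CPM). It was at 103583 and 173097 CPM in the acinar class with *Fth1* at 904 and 776 CPM. The B cell value rests on 9 FAKi cells. The iron and haem list as a whole had 0 of 9 members past 2-fold and a median of 0.01.

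In the lysosome and cathepsin list 24 of 34 members stood above 0 and 10 below on the log2 ratio, with a median of 0.16 and 0 of 31 past 2-fold. The list took 4.47% of vehicle and 4.41% of FAKi UMIs in subgroup 0 and 3.65% and 4.77% in subgroup 2. *Ctsb*, a cysteine protease of lysosomes, was at 1342 and 2012 CPM, a ratio of 1.5 (1.38 to 1.62), and *Cd63*, a tetraspanin of late endosomes, had a ratio of 1.54 (1.37 to 1.74). *Ctsd*, the aspartic protease of lysosomes, had the ratio 1.87 (1.71 to 2.04), from 948 and 1772 CPM, and 1.13 (0.884 to 1.42) within subgroup 0 and 1.6 (1.43 to 1.78) within subgroup 2. *Ctss*, the protease that trims the invariant chain, had 1.2 (1.13 to 1.29) over the class and 0.992 (0.912 to 1.08) in subgroups 0 and 2. The intervals of *Ctsb*, *Cd63* and *Ctsd* lay above 1 in the whole class, and *Ctss* stood level once the other subgroups were left out.

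In the lipid handling list 2 of 19 members were 2-fold higher and 0 lower, with a median of 0.09 and 8 of 21 members below 0. The list took a smaller share of FAKi than of vehicle UMIs in subgroup 0 (4.59% against 6.76%) and a larger one in subgroup 2 (6.01% against 5.43%). *Trem2*, a lipid-sensing receptor of phagocytes, was at 228 and 423 CPM, a ratio of 1.86 (1.55 to 2.23), and its ratio was 1.67 (1.19 to 2.35) in subgroup 0 and 1.61 (1.25 to 2.08) in subgroup 2. The 2-fold members were *Gpnmb*, a glycoprotein of lipid-laden macrophages, at 50.02 and 177 CPM with a ratio of 3.54 (2.52 to 4.99), and *Apoc2*, the activator of lipoprotein lipase, at 50.8 and 128 CPM with a ratio of 2.51 (1.75 to 3.63). *Gpnmb* rested on 6 cells in each library. Per cell thinned to 2000 UMIs, *Trem2* was seen in 30.8% of vehicle and 47.6% of FAKi macrophages, and in 45.0% and 58.2% unthinned, against 0% of endothelial cells in both libraries, which allows up to 0.741% and 1.61%.

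**Figure D4:**
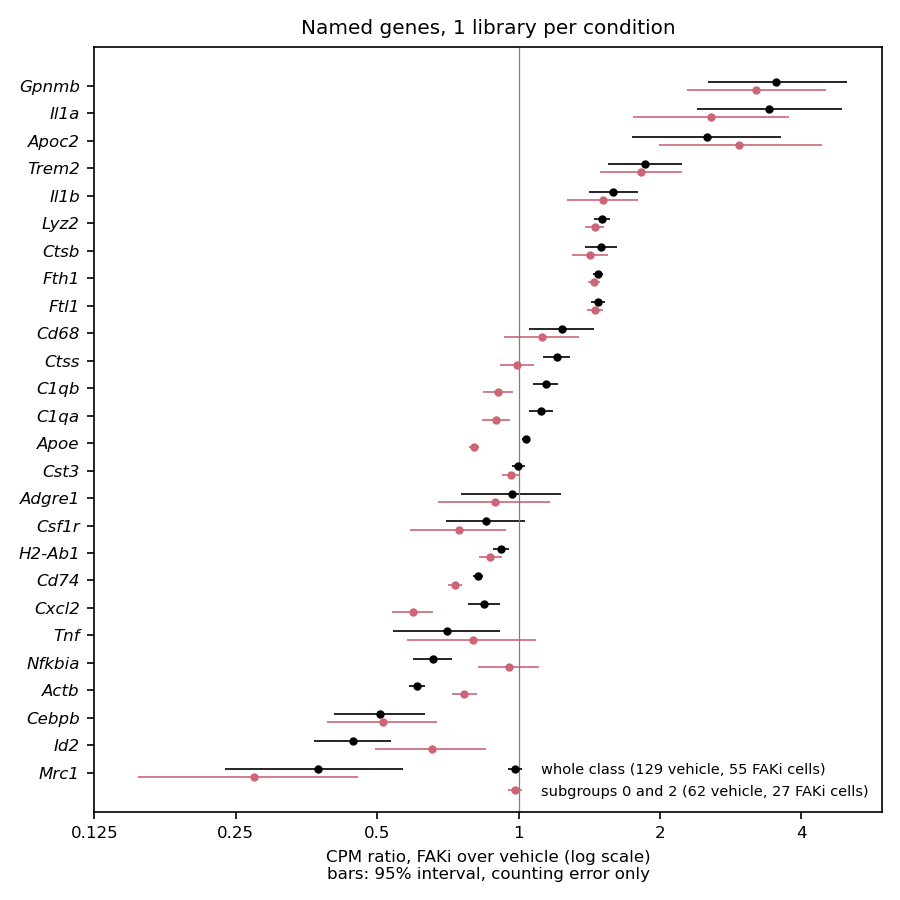
The ratio of CPM in FAKi to vehicle macrophages is shown on a log axis for 26 named genes, with bars for the 95% counting interval, in black over the whole class (129 vehicle and 55 FAKi cells) and in red over subgroups 0 and 2 (62 and 27 cells). Trem2, Il1a, Ctsb and Fth1 stand above 1 and Cebpb and Mrc1 below 1 in both sets of cells.

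Interleukin 1 genes were higher in FAKi macrophages, and the CPM of *Tnf* was lower over the class as a whole. *Il1b*, the cytokine released after inflammasome activation, was at 568 and 903 CPM, a ratio of 1.59 (1.41 to 1.79), with UMIs in 66 vehicle and 29 FAKi cells, and its ratio was 1.47 (1.21 to 1.78) within subgroup 0 and 9.99 (5.1 to 21.8) within subgroup 2. Its lowest, median and highest cells were 0, 1 and 62 UMIs in the vehicle and 0, 1 and 88 in the FAKi library, so the typical cell was alike and the upper end was higher. *Il1a*, its membrane-bound relative, was at 46.7 and 159 CPM, a ratio of 3.41 (2.4 to 4.89), from 16 vehicle and 14 FAKi cells. *Tnf* was at 218 and 153 CPM, a ratio of 0.705 (0.54 to 0.911), and 0.798 (0.578 to 1.09) in subgroups 0 and 2, an interval that includes 1. The cytokine list had 1 of 7 members 2-fold higher and 0 lower, with a median of −0.21. Thinned to 2000 UMIs per cell, *Il1b* was seen in 42.1% and 47.6% and *Tnf* in 28.0% and 14.3% of vehicle and FAKi macrophages, and each in 0.202% and 0% of endothelial cells, which allows up to 1.61% of the latter. Unthinned, the macrophage shares were 51.2% and 52.7% for *Il1b* and 47.3% and 32.7% for *Tnf*. Thinned to 1000 UMIs the order of *Tnf* turned, with 12.8% of 117 vehicle and 17.0% of 47 FAKi macrophages, and *Il1b* was seen in 25.6% and 34.0%, so the shares give no direction for *Tnf*.

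The chemokines differed among themselves. Of 16 with at least 50 UMIs, 1 was 2-fold higher and 3 were lower, and the median was −0.28. In subgroups 0 and 2 it was 0.11, with 8 of 15 members above 0 and, of 14, 2 that were 2-fold higher and 4 lower. The abundant attractants of monocytes and T cells *Ccl3* and *Ccl4* had ratios of 1.28 (1.11 to 1.46) and 1.2 (1.11 to 1.31), whereas *Cxcl2*, which attracts neutrophils, had a ratio of 0.843 (0.779 to 0.913) from levels of 1982 and 1672 CPM. *Cxcl2* differed in direction between the subgroups, at 1.22 (1.09 to 1.37) in subgroup 0 and 0.127 (0.0978 to 0.164) in subgroup 2. *Cxcl14* was at 20.8 and 94.4 CPM, a ratio of 4.53 (2.74 to 7.67). *Ccl8*, a product of CD206-positive macrophages, was at 65.9 and 7.87 CPM, a ratio of 0.119 (0.0318 to 0.318). *Ccl17* and *Ccl22*, dendritic cell chemokines that bind CCR4, had 102 and 82 UMIs in the vehicle and none in the FAKi library, which places them at least 14.4-fold and 11.6-fold lower against a floor of 3 UMIs. Of 20 receptors for chemokines and growth factors, 0 were past 2-fold in either direction, and of 15 growth factor and matrix genes 0 were higher and 2 lower, namely the neutrophil proteases *Mmp8* and *Mmp9*.

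MHC class II genes stood slightly lower in FAKi macrophages over the whole class and in subgroup 0, and higher in subgroups 1 and 2. MHC class II genes took 4.22% of the UMIs of vehicle and 3.52% of those of FAKi macrophages, with a list median of −0.35, 0 of 10 members 2-fold higher and 1 lower. *Cd74* was at 19318 and 15824 CPM, a ratio of 0.819 (0.799 to 0.84), and the chains *H2-Aa*, *H2-Ab1* and *H2-Eb1* had ratios of 0.835 (0.803 to 0.867), 0.916 (0.882 to 0.952) and 0.776 (0.739 to 0.815). The MHC class II share of UMIs was 7.01% in vehicle and 5.46% in FAKi cells of subgroup 0, but 5.69% and 6.79% in subgroup 1 and 1.98% and 2.49% in subgroup 2. For *Cd74* the direction differed by subgroup, with 0.751 (0.719 to 0.784) in subgroup 0 but 1.17 (1.11 to 1.23) in subgroup 1 and 1.24 (1.15 to 1.33) in subgroup 2. The member past 2-fold was *H2-Ob*, which restrains peptide loading in B and dendritic cells, at 38.3 and 11.8 CPM. In the MHC class I list *Tap1*, part of the peptide transporter, was at 57.5 and 19.7 CPM, a ratio of 0.342 (0.157 to 0.667), and 0 of 13 members were 2-fold higher, but the log2 ratio of *Tap1* was 0.29 after thinning. The MHC class I median was −0.30 over the class and 0.01 in subgroups 0 and 2, where 8 of 13 members stood above 0. The costimulation list had 0 of 6 higher and 1 lower, *Tnfsf9*, the ligand of 4-1BB, at 60.02 and 23.6 CPM.

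Among transcription factors *Cebpb* and *Id2* were lower in FAKi macrophages. *Cebpb*, a factor of myeloid differentiation and inflammatory genes, was at 388 and 197 CPM, a ratio of 0.507 (0.405 to 0.631), and it was lower within subgroup 0, at 0.404 (0.232 to 0.664), and within subgroup 2, at 0.482 (0.346 to 0.661). It was also lower in other classes of the same libraries, with ratios of 0.598 (0.49 to 0.725) in endothelial cells and 0.495 (0.42 to 0.58) in fibroblasts. *Id2*, an inhibitor of helix-loop-helix factors needed by dendritic cells, was at 589 and 262 CPM, a ratio of 0.444 (0.366 to 0.535), and 0.653 (0.495 to 0.852) in subgroups 0 and 2. *Klf2*, a factor that quiets inflammatory genes, had a ratio of 1.52 (1.31 to 1.76) over the class, with 3.48 (2.63 to 4.61) in subgroup 0 and 0.393 (0.261 to 0.576) in subgroup 2. Of 18 macrophage transcription factors with at least 50 UMIs, 0 were 2-fold higher and 1, *Id2*, was lower, and the list median was −0.30.

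Over the whole class most early response and NF-kB genes stood below 0 on the log2 ratio, few of them past 2-fold. These were 17 of 22 immediate early and 16 of 22 pattern recognition and NF-kB members, against 4149 of 7102 genes in all. *Nfkbia*, the inhibitor of NF-kB that is itself an NF-kB target, was at 1600.5 and 1050.3 CPM, a ratio of 0.656 (0.595 to 0.723), but its ratio was 0.953 (0.819 to 1.11) in subgroups 0 and 2. *Tnfaip3*, encoding A20, had 0.654 (0.518 to 0.818) and 1.05 (0.724 to 1.49) in the same sets, and *Relb*, an NF-kB subunit of dendritic cells, had 0.399 (0.197 to 0.741) over the class. *Relb* and *Tnfaip3* had more UMIs in subgroup 1 than in any other subgroup, and in the macrophage-like subgroups *Nfkbia* and *Tnfaip3* stood near level. *Gadd45b*, a stress-induced gene, was at 383 and 175 CPM, a ratio of 0.457 (0.36 to 0.574), with 1.2 (0.737 to 1.91) in subgroup 0 and 0.0776 (0.0247 to 0.187) in subgroup 2. *Junb*, *Fos* and *Jun*, subunits of AP-1, had ratios of 0.841 (0.781 to 0.904), 1.14 (1.07 to 1.21) and 1.06 (0.991 to 1.14). In the immediate early list 0 of 21 members were 2-fold higher and 2 lower (*Gadd45b* and the nuclear receptor gene *Nr4a3*), with a median of −0.23. Its median in subgroups 0 and 2 was −0.45, with 3 of 19 members above 0, 2 of 18 2-fold lower and 0 higher. The pattern recognition and NF-kB list had 0 higher and 1 lower (*Relb*) of 15, and a median of −0.30.

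Of the kinases that the inhibitor acts on, FAK RNA was barely detected in these cells and PYK2 RNA was low. *Ptk2* had 12 UMIs in 10 vehicle cells and 1 UMI in 1 FAKi cell, which is 10.0 and 1.97 CPM and a ratio of 0.197 (0.0046 to 1.33), so no difference was detectable at this depth. In the same libraries *Ptk2* stood at 115 and 102 CPM in endothelial cells and at 179 and 189 CPM in pericytes, the classes where it was highest, and at 12.2 and 19.2 CPM in T cells and 11.0 and 9.61 CPM in beta cells. B cells had 3 and 1 UMIs of it, 4.74 CPM in the vehicle library. *Ptk2b*, the relative found in myeloid cells, was at 54.2 and 57.04 CPM, a ratio of 1.05 (0.655 to 1.65), from 65 and 29 UMIs. Both kinase genes thus gave no value at which vehicle and FAKi macrophages could be told apart. Thinned to 2000 UMIs per cell, *Ptk2* was seen in 1.87% of vehicle macrophages and in 0% of FAKi macrophages, which allows up to 8.41%, and *Ptk2b* in 9.35% and 7.14%. The unthinned shares were 7.75% and 1.82% for *Ptk2* and 34.1% and 36.4% for *Ptk2b*. Endothelial cells had *Ptk2* in 18.1% and 19.8% and *Ptk2b* in 3.02% and 0.881% after thinning to 2000 UMIs.

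The adhesion genes that were 2-fold lower were most abundant in subgroup 1. In the adhesion list 0 of 22 members were 2-fold higher and 3 lower, with a median of −0.25 that was −0.03 in subgroups 0 and 2. *Cd44*, the hyaluronan receptor, was at 149 and 66.9 CPM, a ratio of 0.448 (0.301 to 0.65). Its shares did not follow at every depth, with 22.4% of vehicle and 23.8% of FAKi macrophages at 2000 UMIs per cell, 14.5% and 8.51% at 1000 and 48.8% and 30.9% unthinned. *Itgb7*, an integrin chain of lymphocytes and dendritic cells, was at 65.9 and 21.6 CPM, a ratio of 0.329 (0.158 to 0.62), and *Fyn*, a Src-family kinase, at 46.7 and 7.87 CPM, a ratio of 0.169 (0.0444 to 0.456). *Actb* had a ratio of 0.609 (0.585 to 0.633) over the class and 0.767 (0.722 to 0.814) in subgroups 0 and 2.

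Several genes of CD206-positive macrophages were lower in the FAKi library, over the class and in subgroups 0 and 2. Of 12 members of the list with at least 50 UMIs, 5 were 2-fold lower and 1 higher, and the median was −1.26 over 15 members and −1.75 in subgroups 0 and 2, where all genes had a median of −0.05. *Mrc1* had 164 UMIs in 30 vehicle cells and 26 UMIs in 8 FAKi cells, which is 137 and 51.1 CPM and a ratio of 0.374 (0.237 to 0.568), and within subgroup 2 it had 125 and 13 UMIs. In subgroup 0, where *Mrc1* had 13 UMIs in all, its log2 ratio was 0.26, so the lower level lay outside that subgroup. *F13a1*, the coagulation factor XIII A chain made by such cells, was at 75.9 and 11.8 CPM, a ratio of 0.156 (0.0556 to 0.352). *Pf4*, a platelet-type chemokine, was at 168 and 106 CPM, a ratio of 0.631 (0.458 to 0.855), and *Mgl2*, a galactose-binding lectin, at 182 and 60.97 CPM, a ratio of 0.336 (0.223 to 0.49). *Cd209f*, a lectin, had 53 vehicle UMIs and 0 in FAKi, at least 7.49-fold lower. The 1 member that was higher, *Cd209d*, had 29 of its 39 FAKi UMIs in 1 cell. *Clec4n*, also on the list, had a ratio of 1.56 (1.13 to 2.14), so its members did not all point the same way. Thinned to 2000 UMIs per cell, *Mrc1* was seen in 13.1% of vehicle and 9.52% of FAKi macrophages, and in 23.3% and 14.5% unthinned, against 2.02% and 0.441% of endothelial cells after thinning.

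The phagocytic and scavenger receptor list had 0 of 18 members 2-fold higher and 2 lower, with a median of 0.02. The lower members were *Mrc1* and *Fcgr2b*, the inhibitory IgG receptor, at 131 and 53.1 CPM with a ratio of 0.406 (0.259 to 0.613).

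Genes of CCR7-positive dendritic cells and of the cell cycle were lower in the FAKi library. Those past 2-fold had more UMIs in subgroup 1 than in any other subgroup. Genes of the other dendritic lists gave no single direction. *Ccr7*, the receptor that guides dendritic cells to lymph nodes, had 152 UMIs in 20 vehicle cells and 4 UMIs in 1 FAKi cell, which is 127 and 7.87 CPM and a ratio of 0.0621 (0.0167 to 0.162). *Fscn1*, the actin bundler of mature dendritic cells, had 61 and 2 UMIs, a ratio of 0.0774 (0.00916 to 0.292). All 4 members of the CCR7 list with at least 50 UMIs (*Ccr7*, *Fscn1*, *Ccl22* and *Tmem123*) were 2-fold lower, with a list median of −1.47 over 7 members. *Cd209a*, of the type 2 conventional list, was at 129 and 82.6 CPM, a ratio of 0.639 (0.443 to 0.904), and the type 1 and type 2 lists had medians of −0.44 and −0.48 with 1 of 5 (*Wdfy4*, needed for cross-presentation) and 0 of 4 members 2-fold lower. In subgroups 0 and 2 those medians were 0.17 over 3 and 0.09 over 2 members, and within subgroup 1 the type 1 list took 0.170% of vehicle and 0.0810% of FAKi UMIs and the type 2 list 0.160% and 0.227%. Of 6 cell cycle genes, 3 were 2-fold lower and 0 higher. *Mki67*, a marker of dividing cells, had 59 and 5 UMIs, of which 51 and 2 were in subgroup 1, *Ube2c*, a ubiquitin-conjugating enzyme of mitotic exit, had 65 and 0 UMIs, at least 9.18-fold lower, and *Stmn1*, which destabilises microtubules, had 104 and 11. In subgroups 0 and 2 the log2 ratios of *Mki67*, *Stmn1* and *Tmem123* were above 0 on few UMIs. Thinned to 2000 UMIs per cell, *Ccr7* was seen in 14.0% of vehicle macrophages and 0% of FAKi macrophages, with an upper bound of 8.41% for the latter, and in 15.5% and 1.82% unthinned. Subgroup 1 had 38 vehicle and 7 FAKi cells. Within it the CCR7 list took 0.130% of vehicle and 0.0210% of FAKi UMIs, and the cell cycle list 0.245% and 0.0570%. Fewer CCR7-positive or dividing cells and less RNA per cell cannot be told apart at these numbers.

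The most abundant neutrophil genes had UMIs in vehicle but not FAKi macrophages and rested on very few cells. *S100a9* and *S100a8*, which form calprotectin, had 4133 and 2396 UMIs in the vehicle and none in the FAKi library, at least 584-fold and 338-fold lower. The *S100a9* UMIs came from 6 cells, with highest cells of 1054 and 1017 UMIs. The class held 50.3% of the *S100a9* UMIs of the vehicle library, and the cells annotated as T cells held nearly all of the rest (4053 UMIs, 49.3%), so these genes were not confined to the macrophages, while no class of the FAKi library had an *S100a9* UMI. *Ngp*, *Camp*, *Lcn2*, *Retnlg* and *Ltf*, genes of neutrophil granules and maturation, had 858, 836, 567, 328 and 281 vehicle UMIs and none in the FAKi library. All 7 neutrophil list members with at least 50 UMIs were 2-fold lower, and 4050 of the *S100a9* UMIs lay in the 4 cells of subgroup 5. *Chil3*, *Ifitm6*, *Wfdc21*, *Mmp9*, *G0s2* and *Mmp8* had between 58 and 202 vehicle UMIs and likewise none in the FAKi library. In the monocyte list 3 of 6 members (*Chil3*, *S100a4* and *Ms4a4c*) were 2-fold lower and 1 higher. *S100a4* was at 373 and 167 CPM, a ratio of 0.448 (0.351 to 0.566), and had most of its UMIs in subgroup 1, while in subgroups 0 and 2 its ratio was 2.46 (1.44 to 4.25) on 28 and 32 UMIs. The higher member, *Plac8*, had 118 of its 126 FAKi UMIs in 1 cell. *Igkc*, the immunoglobulin light chain constant gene, had 150 of its 157 vehicle UMIs in 1 cell and none in the FAKi library.

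Acinar RNA and the hormone genes *Sst* and *Gcg* were higher in FAKi macrophages, with most of the FAKi UMIs of each in 1 cell, and the insulin genes were near level. Acinar genes took 0.534% of vehicle and 3.62% of FAKi UMIs, and all 22 list members were 2-fold higher, with a median of 2.63. One FAKi cell of subgroup 4 held 15195 acinar UMIs. Without it acinar genes took 0.659% of FAKi UMIs, 1 of 21 members was 2-fold higher and 0 lower, and the median was 0.29. Among 8 members with at least 50 UMIs in subgroups 0 and 2, which do not hold that cell, 2 were 2-fold higher. The median there was 0.83, with 14 of 15 members above 0, against −0.05 over all genes. *Clps*, the cofactor of pancreatic lipase, had 486 and 3094 UMIs, 2967 of the latter in 1 cell, and *Prss2*, a trypsinogen, had 615 and 1646, 1340 of them in 1 cell. Without the top cell of each library the log2 ratio was −0.45 for *Clps* and 0.44 for *Prss2*, and it stayed above 1 for the proteases *Try5* (1.08) and *Ctrc* (1.44). *Sst* and *Gcg*, encoding somatostatin and glucagon, had 123 and 1543 and 217 and 1198 UMIs, with 1485 and 840 in 1 FAKi cell each. The second-highest FAKi cell had 7 *Sst* and 94 *Gcg* UMIs. *Sst* had medians of 0 and 1 UMIs per vehicle and FAKi cell. *Gcg* had medians of 1 and 4, with a UMI in 91 of 129 and 51 of 55 cells, so it was less confined to 1 cell. In the list of other endocrine cells 5 of 12 members (*Gcg*, *Sst*, *Rbp4*, *Pyy* and *Ttr*) were 2-fold higher and 0 lower, with a median of 0.39. In subgroups 0 and 2 that median was 1.18, with 6 of 7 members above 0, 4 of 5 2-fold higher and 0 lower. The list took 17.0% of the UMIs of the highest cell of subgroup 0, against 0.0639% in its median cell. Thinned to 2000 UMIs per cell, *Prss2* was seen in 26.2% of vehicle and 52.4% of FAKi macrophages, and in 27.6% and 49.8% of endothelial cells, which do not make trypsinogen, so the share in macrophages was at the level of the background. *Ins2* was seen in 99.1% and 100% of macrophages and 96.6% and 99.1% of endothelial cells, so its shares cannot tell the classes apart. Summed over the class, its level was above the 36727 and 55360 CPM of endothelial cells, but this lay mostly in subgroup 3. There *Ins2* stood at 310575 CPM, against 3637 CPM in the other macrophages, both libraries pooled. The median cell had 17 and 31 *Ins2* UMIs in macrophages and 14 and 25 in endothelial cells. Beta cell genes had a median of −0.01 with 0 of 13 members past 2-fold, a value that includes the 13 cells of subgroup 3 with their 46.9% of beta RNA. The median in subgroups 0 and 2 was 0.61 over 3 members, with 1 of 3 2-fold higher. The beta list took 0.402% of vehicle and 0.776% of FAKi UMIs in subgroup 0, 0.335% and 0.620% in subgroup 1 and 0.246% and 0.411% in subgroup 2. Whether cells attached to macrophages, material taken up by them or free RNA in the droplets gave these UMIs was not tested.

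The remaining genes among the 15 highest ratios had varied roles. *Hspb1*, a small heat shock protein, was at 60.9 and 248 CPM, a ratio of 4.07 (3.03 to 5.51), from 15 vehicle and 11 FAKi cells, and 4.16 (2.61 to 6.76) in subgroups 0 and 2. It was the 1 member of 12 in the heat shock list past 2-fold, and the list median was 0.14 over the class. In subgroups 0 and 2 that median was −0.29, with 3 of 12 members above 0. Among 11 members with at least 50 UMIs there, 1 was 2-fold higher and 1 lower. The list took 1.44% of vehicle and 0.764% of FAKi UMIs in subgroup 2. Its share was uneven there, with a median cell of 0.796% and a highest cell of 5.74% over both libraries. *Ada*, adenosine deaminase, was at 20.01 and 78.7 CPM, a ratio of 3.93 (2.31 to 6.82), and *Tnfsf13*, the B cell factor APRIL, at 30.01 and 76.7 CPM, a ratio of 2.56 (1.58 to 4.14). *Rcbtb2*, *Syngr1*, *Gstm1*, *Tagap*, *Gon4l* and *Hist1h1c* had ratios of 2.45, 2.69, 2.51, 2.51, 2.44 and 2.18. *Npy*, a neuropeptide, had the highest ratio of these, 7.9 (4.74 to 13.8), on 20 and 67 UMIs from 2 and 3 cells, and in subgroups 0 and 2 it had 14 and 0 UMIs. *AY036118*, a ribosomal RNA-like transcript, had a ratio of 2.5 (2.16 to 2.89) and was also higher in endothelial cells, at 3.14 (2.93 to 3.35), and fibroblasts, at 2.4 (2.12 to 2.7). The nuclear RNA *Malat1* had a ratio of 0.733 (0.711 to 0.756) in macrophages, against 1.14 in endothelial cells and 1.07 in fibroblasts. All these classes share the same 2 libraries, so their values are not independent of one another.

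The interferon response list had 0 of 10 higher and 0 lower and a median of −0.12, and glycolysis and hypoxia genes had 0 of 11 higher and 1 lower (*Pfkp*, a phosphofructokinase) with a median of −0.20. Markers of T cells, NK cells, endothelial cells, mesenchymal cells and erythrocytes had at most 1 member with 20 UMIs in the class. The plasmacytoid dendritic and B cell lists had 0 members higher and 1 lower each, *Tcf4* and *Igkc*. In the ductal list *Krt8*, a keratin, was 2-fold higher, at 45.01 and 114 CPM, and in the mesenchymal list *Rgs5*, a pericyte gene, was lower with 102 and 1 UMIs, 74 of the former in 1 cell.

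**Figure D5:**
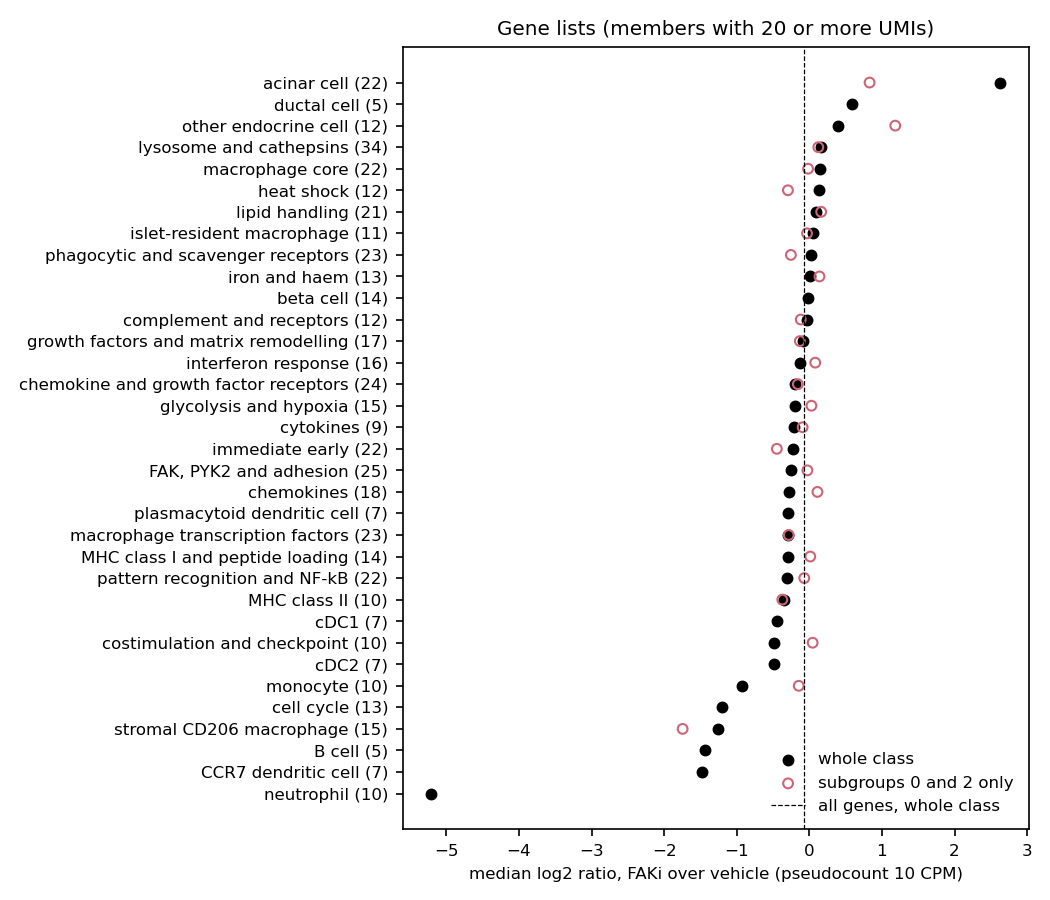
Each point is the median log2 ratio of FAKi to vehicle CPM (x axis) over the members with at least 20 UMIs of a gene list (y axis, lists with 4 or more such members), in black for the whole class and as open red circles for subgroups 0 and 2, and the dashed line marks the median over all genes (−0.08 over the whole class). Most macrophage lists lie near the line, and the neutrophil, CCR7, B cell, CD206, cell cycle and monocyte lists lie to its left. The acinar list lies to its right, at 2.63 over the whole class and 0.29 without 1 cell of subgroup 4. It is at 0.83 in subgroups 0 and 2, which do not hold that cell. Since 8 of the 10 neutrophil members have no FAKi UMI, the place of that list depends on the 10 CPM added.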

How the data were processed

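Islet cells of 1 vehicle and 1 FAKi library, each deposited as 4 lanes, were analysed. The authors deposited raw counts (UMIs) of 19945 genes per cell, made with Cell Ranger on mm10 per the submitters' processing notes, and a table with the annotation of each cell. They set the cell filters with Seurat 3.1 and annotated cells from canonical markers and references. That table, deposited by the authors, also gives the percent of mitochondrial UMIs, which they limited to 8%. The deposited counts hold the lanes of a library together, and lanes are not replicates. How free RNA was treated is not given in the sources used here.

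Macrophages were the cells so annotated. Counts were summed per library and divided by their total (CPM). A ratio of 2 CPM has an exact conditional binomial interval, a share of cells a Clopper-Pearson interval, both at 95%. Intervals and floors (3 UMIs per library) cover counting error only. For calls 10 CPM were added to each level, with a minimum of 50 UMIs, and list medians used members with at least 20. The class was clustered alone (10000 per cell, 2000 variable genes, 20 principal components, 15 neighbours, Leiden resolution 0.5 and, as alternatives, 0.25 and 1, seed 0) with scanpy 1.11.5 and igraph 0.11.9. Intervals came from scipy 1.17.1 under python 3.11.15, tables from pandas 2.3.3 with numpy 2.4.6, figures from matplotlib 3.10.9, and scikit-learn 1.9.0 served scanpy. Doublets were marked with scrublet and kept. The scripts were tested on simulated data, and 20 alternatives to the main setting were run.

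Members and the 39 gene lists (598 genes) were chosen with earlier results of these data known. Of the list genes, 9 are not analysed here, and 23 names in the table are dates. Genes were named if they were among the 5 markers, the 4 most abundant or any 2-fold members of a list, the 10 most abundant genes (mitochondrial and ribosomal ones left out), the 15 most class-restricted with at least 100 UMIs, *Ptk2* or *Ptk2b*, or the 15 highest and 15 lowest ratios. The last had at least 50 UMIs, an interval that excludes 1, 1.5-fold without the top cell and at least 10% of the level of the highest class. Values of other list members, of genes that lead a subgroup and of *Ctsd* were named after they were seen. Some genes that meet the rule are not reported here. No test was run.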

Additional observations from a re-analysis of the deposited data

Results flagged for a closer look

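A signal of the macrophage markers was seen outside the class. Of 6775 cells with another annotation, 10 (0.148%) had a UMI of at least 3 of the 5 given markers, with 2 each among alpha, beta, delta, ductal and T cells. The doublet caller marked 0 of them. Whether they are doublets, cells with adhering macrophage RNA or misplaced macrophages was not tested.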

How the results depend on the processing

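The counts of genes that were 2-fold higher and lower (53 and 111) depended on the cells and on the floor, and the cause was not tested. With the mean over cells they were 116 and 322, with at least 20 UMIs 83 and 226, with at least 200 UMIs 25 and 20, with cells thinned to 2000 UMIs 30 and 33, without the top cell 16 and 188, with free RNA subtracted 123 and 198, in subgroups 0 and 2 26 and 58 and in subgroup 0 21 and 25. Without endocrine and acinar genes 29 were higher, as were 29 without the cell with the highest acinar share. The lower count was 201 with a pseudocount of 1 CPM, 28 with 50 CPM and 43 in cells with at least 3 of the 5 markers. The median of MHC class II was −0.10 in those cells and −0.079 after thinning, and that of the core macrophage list −0.15 in subgroup 0. Scaling by the median ratio gave 57 and 87.

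Of 667 list medians under the alternatives, 620 moved by less than the spread (the median counting interval of the members), 46 by more, and 1, past 2-fold in the class, turned its sign. Counting those of any size, 71 were on the other side of 0. Of 3887 values of 223 named genes, 2696 stayed within the counting interval, 1151 moved beyond it and 40, of genes past 2-fold in the class, turned their sign, whereas 301 of any size were on the other side of 0. The log2 ratios past 2-fold that turned were, with the mean over cells, *Plac8* −0.20, in cells under 5% mitochondrial UMIs, *Sst* −0.11, and in cells with at least 3 markers, *Cd209d* −0.58, *Itgb7* 0.12, *S100a4* 0.54 and *Wdfy4* 0.35. In cells with under 10% endocrine and acinar UMIs, *Npy* was −1.36 and *Rbp4* −0.17. After thinning, *Cd209d* was −0.49, *Gon4l* −0.17, *Stmn1* 0.15 and *Tap1* 0.29. Without the top cell, *Clps* was −0.45 and *Plac8* −1.91. Without the cell with the highest acinar share, *Clps* was −0.61, *Cpa1* −0.0089 and *Klk1* −0.095. In subgroups 0 and 2, the CCR7 list was 0.084, *Cd209d* −0.88, *Clps* −0.44, *Cox6a2* 0.27, *Klk1* −0.28, *Mki67* 0.94, *Npy* −1.99, *Plac8* −0.88, *Rnase1* −0.19, *S100a4* 1.17, *Stmn1* 0.66, *Tmem123* 0.084 and *Wdfy4* 0.16. In subgroup 0, *Clps* was −0.031, *Gadd45b* 0.25, *Klk1* −0.42, *Mki67* 1.55, *Mrc1* 0.26, *Plac8* −0.75, *S100a4* 0.53, *Stmn1* 1.55, *Syngr1* −0.26, *Tmem123* 0.94 and *Wdfy4* 0.15.

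No paired analysis was possible because each condition is 1 library and its lanes are not replicates. The class has 1 deposited cluster and no marked doublet, so taking only that cluster or removing doublets left the cells as they were. With 55 FAKi cells, a gene under 3 UMIs cannot be told from absence, and the spread between mice is unknown.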

Other observations

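*C1qa* was seen in endocrine cells without its partner chains. It had a UMI in 62.4% of delta cells, 55.9% of alpha cells and 34.9% of beta cells, at 102, 82.0 and 23.4 CPM, against 3200 CPM in macrophages. *C1qb*, whose RNA accompanies that of *C1qa* in macrophages, had 5, 10 and 25 UMIs in the same classes, where *C1qa* had 1043, 804 and 1676. Endothelial and T cells had a *C1qa* UMI in 1.85% and 6.12% of cells. The median depths were 13126.5, 13235 and 30556 UMIs in delta, alpha and beta cells and 5309.5 in endothelial cells. The class held 59.6% of all *C1qa* UMIs of the series but 98.1% of those of *C1qb*.

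The ligands of the macrophage growth factor receptor were higher in other classes. *Il34* was at 133 and 149 CPM in vehicle and FAKi pericytes and at 50.4 and 53.0 CPM in fibroblasts, against 0.834 and 0 CPM in macrophages. *Csf1* was at 85.4 and 85.5 CPM in fibroblasts, 43.1 and 35.9 CPM in endothelial cells, 36.7 and 26.7 CPM in ductal cells and 33.9 and 40.3 CPM in pericytes, against 1.67 and 1.97 CPM in macrophages. Beta cells had *Csf1* at 3.76 and 4.12 CPM and, being the most numerous class, held 16.0% of its vehicle and 44.4% of its FAKi UMIs. Both genes were chosen after their values were seen.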
